A study of Gallus gallus with 2 samples.

Results

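The respiratory chain of mitochondria is built from 2 genomes, and the nuclear genes among them were described here in breast muscle of Xichuan black-bone chickens. Members were chosen by gene name, as listed genes outside the mitochondrial genome whose symbol begins with NDUFA, NDUFB, NDUFC, NDUFS, NDUFV, UQCR, COX4 to COX8 or ATP5, or equals SDHA to SDHD, CYC1 or CYCS. This rule gave 59 of the 15073 listed genes. Of these, 51 encode subunits of complexes I to V or cytochrome c, 7 are assembly factors of complex I (NDUFAF genes), and ATP5S encodes coupling factor B of the ATP synthase. The study sequenced RNA from 12-week-old birds as 1 library for the control group, which ate the basal diet, and 1 library for test group IV, whose basal diet contained 0.8% added tyrosine. Each library was made from the pooled RNA of several birds, so neither the spread between birds nor that between libraries can be estimated, and no difference between the diets was tested.

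Complex I takes electrons from NADH and complex II takes them from succinate. Complex III passes them to cytochrome c, complex IV passes them on to oxygen, and complex V (ATP synthase) uses the proton gradient that complexes I, III and IV build up. Complex II is encoded in the nucleus alone, whereas the other 4 complexes also contain subunits encoded by mitochondrial DNA. In chickens, breast muscle consists largely of fast fibres that rely on glycolysis, so it holds fewer mitochondria than red leg muscle.

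Levels are given as FPKM, a fragment count scaled to transcript length and library size, which allows genes of different length to be compared. Where 2 values of a gene stand side by side, the first is that of the control group and the second that of test group IV. The libraries held 13135159 and 14318101 counted fragments. Differences are log2 ratios of the deposited FPKM values, test group IV over control group, with an exact Clopper-Pearson 95% interval from the fragment counts. That interval covers counting error only. Fast fibre genes were abundant in both libraries, with TNNT3 at FPKM 9943 and 9424 and TNNI2 at FPKM 8007 and 8638. Of the 7 skeletal muscle markers, 4 were found by symbol, and PVALB among them had 1 and 5 fragments.

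All 59 members reached an FPKM of at least 1, the limit used for the 11010 genes compared. In the control group they ranged from FPKM 2.75 (NDUFAF4) to 243 (NDUFB10), with a median of 43.9. In test group IV the range was from FPKM 2.26 (COX7A2) to 250.1 (NDUFB10), with a median of 53.4. The median over all compared genes was FPKM 6.41 and 6.76, and 54 of the 59 members were above the middle of all compared genes by mean level. The members took 0.519% and 0.567% of all fragments. No member had fewer than 10 fragments in a library. The smallest total was the 38 fragments of NDUFAF8, with 19 in each library.

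**Figure D1:**
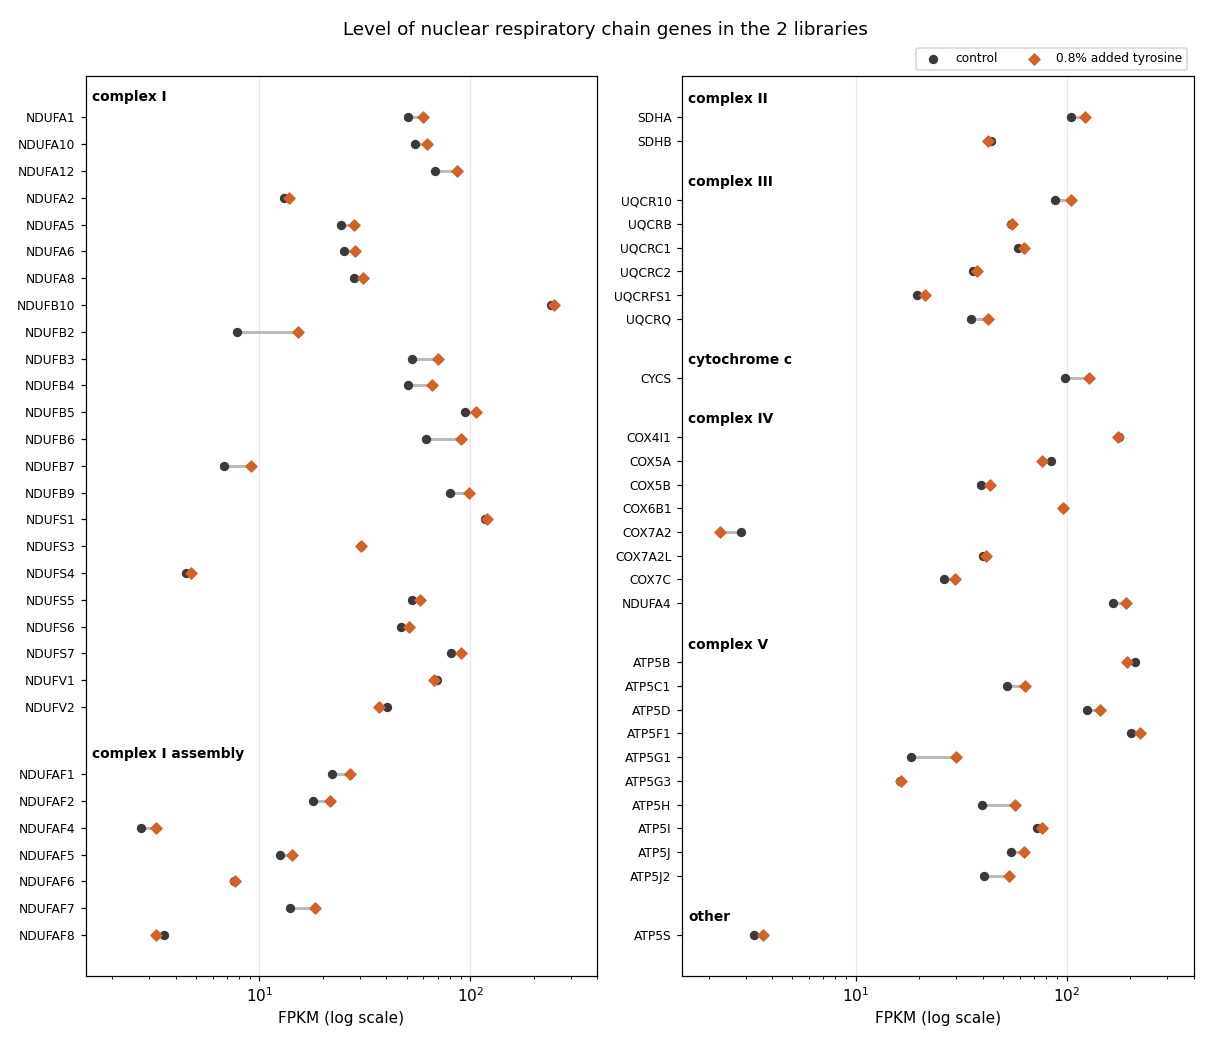
FPKM of 58 of the 59 members on a log axis, with a dark circle for the control group library and an orange diamond for the test group IV library, grouped by complex. Most pairs of symbols lie close together, the widest gap is that of NDUFB2 (7.85 and 15.2), and levels within complex I span from 4.47 to 243 in the control group.

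The difference between the libraries was small for nearly every member and leaned to higher values in test group IV. Of the 59 members, 50 had the higher value in test group IV and 9 in the control group. After median ratio or TMM scaling of the libraries, which sets the middle of all genes to about equal levels, 38 of the 59 were higher. Over all 11010 compared genes, 60.6% were higher as deposited and 39.4% were lower. The median log2 ratio was 0.16 for the 59 members and 0.14 for the 51 subunits. It was 0.09 over all compared genes. A log2 ratio of 0.32 or more, the smaller fold limit used here and called the fold limit below, was reached upward by 11 members, against 24.0% of all compared genes, and downward by 1 member, against 15.5%. After median ratio or TMM scaling, 5 members reached it upward (NDUFB2, NDUFB6, NDUFB7, ATP5G1 and ATP5H), and NDUFA12, NDUFB3, NDUFB4, CYCS, ATP5J2 and NDUFAF7 fell short of it. The 24.0% holds for the deposited values, and the share of all compared genes past the fold limit after scaling is not given here. None of the 59 members differed by 2-fold, the fold threshold of the study, which also set a significance limit. By fold alone, 3.10% of all compared genes passed it upward and 3.31% downward. The SD of the log2 ratio was 0.214 over 48 subunits with a mean FPKM of 10 or more, and it was 0.395 over all 4195 compared genes at that level. The counting interval was above 0 for 27 members (28.6% of all compared genes), below 0 only for ATP5B (15.3%), and included 0 for 31. These intervals are narrower for genes with more fragments, and the members are mostly abundant genes. Among subunits with a mean FPKM of 10 or more, the interval was above 0 for 25 of 48, and among all compared genes at that level for 1754 of 4195. Of those 4195 genes, 65.5% were higher in test group IV as deposited.

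**Figure D2:**
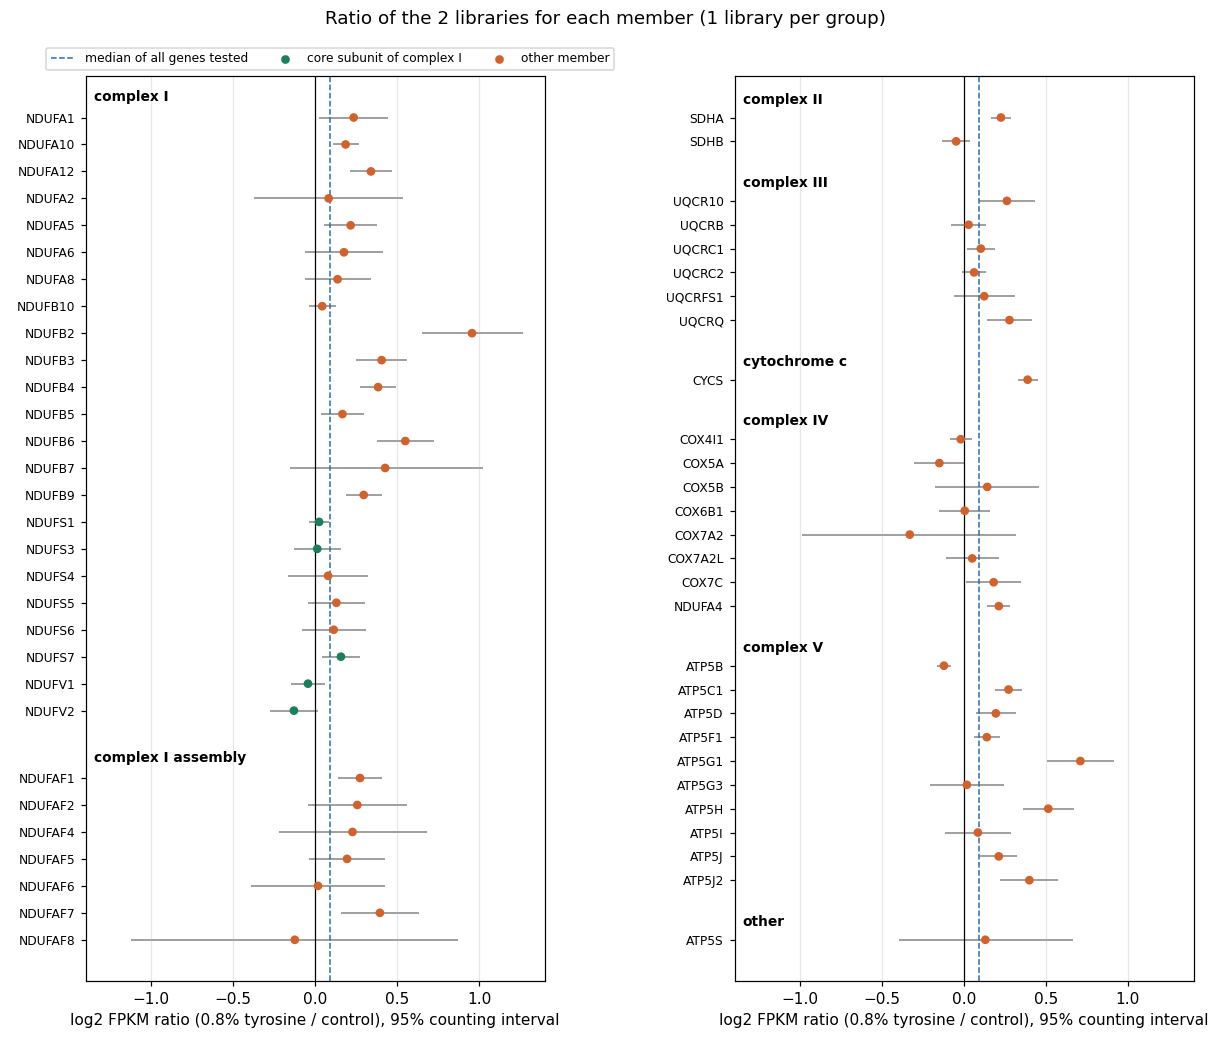
Log2 FPKM ratio of test group IV over the control group for 58 of the 59 members, with its exact 95% counting interval as a horizontal bar. The dashed line marks the median of all compared genes at 0.09. Green points are the nuclear core subunits of complex I, which lie from -0.13 to 0.16, and NDUFB2 at 0.96 is the point farthest to the right.

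Complex I is the largest complex, and 24 of its genes were measured. Its nuclear core subunits carry the flavin and the iron-sulfur clusters along which electrons travel, and its accessory subunits surround the core. The 6 nuclear core genes found, called core genes below, had nearly equal levels in the 2 libraries, with a summed FPKM of 349.6 and 354.6. All 18 accessory genes found by symbol were higher in test group IV as deposited, with a summed FPKM of 967.5 and 1130. After median ratio or TMM scaling, 15 of the 18 were higher. Further accessory genes, such as NDUFA9, NDUFB8 and NDUFC2, were not found by symbol and were not analysed here. The median log2 ratio was -0.02 for the core genes, of which 3 were higher, and 0.20 for the accessory genes. Only 1 of the 6 core genes, NDUFS7, was above the median of all compared genes. No test of the difference between core and accessory genes was possible with 1 library per group.

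NDUFS1, the largest iron-sulfur subunit of the core, had an FPKM of 118 and 120.1. Its 4306 and 4772 fragments gave a log2 ratio of 0.02 (95% interval from -0.04 to 0.08). NDUFV1, which binds NADH and the flavin, was at FPKM 69.6 and 67.5. NDUFV2, its iron-sulfur partner at the tip of the complex, was at FPKM 40.2 and 36.8, a log2 ratio of -0.13 (from -0.28 to 0.02). NDUFS3, a core subunit nearer to the quinone site, had FPKM 30.2 and 30.5. NDUFS7, which holds the last iron-sulfur cluster before the quinone, was at FPKM 80.8 and 90.1 (log2 ratio 0.16, from 0.04 to 0.27). The interval of NDUFS7 lay above 0, and those of the other core genes included 0. NDUFS3 overlaps the gene KBTBD4 in Galgal5. Whether the counting used strand is not given in the sources used here, so reads of such pairs may not be separable.

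The NDUFB genes encode accessory subunits of the membrane arm, and they contained the larger differences. All 8 found by symbol were higher in test group IV, 5 of them past the fold limit, and their median log2 ratio was 0.39. Over all compared genes, 60.6% were higher as deposited and 24.0% passed the fold limit upward, and the median was 0.09. Scaling by median ratio or TMM left 50.2% of all compared genes higher, and their share past the fold limit is not given here. After median ratio or TMM scaling, NDUFB10 was lower and the other 7 were higher, with NDUFB2, NDUFB6 and NDUFB7 past the fold limit and NDUFB3 and NDUFB4 within it at log2 ratios of 0.31 and 0.29. NDUFB2, on chromosome 1 of Galgal5 from 56974471 to 56975259, was at FPKM 7.85 and 15.2. It had 130 and 275 fragments, a log2 ratio of 0.96 (95% interval from 0.65 to 1.27). Its level is uncertain, since the length of 1260 bases implied by its count and FPKM exceeds the 789 bases of its listed locus. This was so for 4 of the members (NDUFB2, UQCRQ, CYCS and ATP5B) and for 187 of all compared genes, and it does not enter the ratio of the libraries.

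NDUFB6, on chromosome 14 from 13454270 to 13456392, was at FPKM 61.6 and 90.1, with 445 and 710 fragments. Its log2 ratio was 0.55 (from 0.38 to 0.72). NDUFB3 was at FPKM 53.1 and 70.3, and NDUFB4 at FPKM 50.6 and 66.0, with log2 ratios of 0.41 and 0.38. The interval of NDUFB7 included 0, with only 43 and 63 fragments and a log2 ratio of 0.43 (from -0.16 to 1.02). NDUFB9, at FPKM 80.5 and 98.8 (log2 ratio 0.30, from 0.19 to 0.40), and NDUFB5, at FPKM 94.97 and 106.5 (log2 ratio 0.17, from 0.03 to 0.30), were also higher, within the fold limit. NDUFB10 was the most abundant member of all and barely differed, at FPKM 243 and 250.1 (log2 ratio 0.04, from -0.04 to 0.12).

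The NDUFA genes differed less from each other. All 7 found by symbol and counted with complex I were higher in test group IV as deposited. Their log2 ratios lay from 0.08 (NDUFA2) to 0.34 (NDUFA12). NDUFA12, at FPKM 68.2 and 86.3, was the only one past the fold limit (95% interval from 0.21 to 0.47), and at a log2 ratio of 0.25 it was within that limit after median ratio or TMM scaling. NDUFA10 had FPKM 54.7 and 62.2, and NDUFA1, a membrane anchor needed for assembly in mammals, had FPKM 50.7 and 59.6. NDUFA5, NDUFA6 and NDUFA8 lay between FPKM 24.3 and 31.0 in both libraries. NDUFA2 was the least abundant of them, at FPKM 13.1 and 13.8, and its interval from -0.37 to 0.54 was the widest of the 7.

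NDUFS4, NDUFS5 and NDUFS6 are accessory subunits in spite of their names. Their log2 ratios were 0.08, 0.13 and 0.11, and all 3 intervals included 0. NDUFS4, which lies on the Z chromosome, was the least abundant complex I subunit, at FPKM 4.47 and 4.72. NDUFS5 had FPKM 53.1 and 58.1, and NDUFS6 had FPKM 47.2 and 51.1. Transcript levels within complex I thus spanned 54.4-fold in one library and 53.0-fold in the other.

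Of the 7 complex I assembly factors, 6 were higher in test group IV, or 5 after median ratio or TMM scaling. These proteins help to build the complex and are not part of it when finished, and their levels were lower than those of the subunits, with a median FPKM of 12.5 and 14.3. NDUFAF1, which acts on the membrane arm, was at FPKM 22.1 and 26.8 (log2 ratio 0.27, from 0.14 to 0.41). NDUFAF7, a methyltransferase, was at FPKM 14.0 and 18.4, with a log2 ratio of 0.39 (from 0.16 to 0.63). The other 5 had intervals that included 0. NDUFAF2, NDUFAF5 and NDUFAF4 had log2 ratios of 0.26, 0.19 and 0.23, NDUFAF6 had 0.02, and NDUFAF8 had -0.12.

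Of complex II, the succinate dehydrogenase that also serves the citric acid cycle, 2 of its 4 genes were found by symbol. SDHA, the flavoprotein that oxidizes succinate, was at FPKM 104.7 and 122. Its 4138 and 5274 fragments gave a log2 ratio of 0.23 (95% interval from 0.17 to 0.28). SDHB, the iron-sulfur subunit, was at FPKM 43.9 and 42.5, a log2 ratio of -0.05 (from -0.13 to 0.04). The counting intervals of the catalytic pair did not overlap, and that of SDHB included 0. SDHA lies on chromosome 2 from 85941188 to 85957098, and only 698 bases separate it from FH, which encodes the next enzyme of the cycle, fumarase. FH had FPKM 58.1 and 64.1, a log2 ratio of 0.14 (from 0.05 to 0.23).

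Complex III was represented by 6 genes, all higher in test group IV as deposited, and 4 of 6 after median ratio or TMM scaling. UQCRC1 and UQCRC2, its large core proteins, were at FPKM 58.7 and 63.0, and at FPKM 35.9 and 37.5. UQCRFS1, the Rieske iron-sulfur protein, was the least abundant, at FPKM 19.5 and 21.3. The small subunit UQCR10 was at FPKM 87.9 and 105.4 (log2 ratio 0.26, from 0.09 to 0.43). UQCRQ, another small subunit, was at FPKM 35.1 and 42.6 (log2 ratio 0.28, from 0.14 to 0.42). UQCRB, which contributes to the quinone pocket, barely differed, at FPKM 54.3 and 55.4. None of the 6 reached the fold limit, and the median log2 ratio was 0.11.

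Cytochrome c carries electrons from complex III to complex IV. CYCS, on chromosome 2 from 31819123 to 31821634, was at FPKM 98.0 and 128. With 3622 and 5167 fragments, its log2 ratio was 0.39 (95% interval from 0.33 to 0.45). Among the members with more than 1000 fragments in both libraries, only CYCS and NDUFB4 were past the fold limit as deposited. After median ratio or TMM scaling both were within it, CYCS at a log2 ratio of 0.30 and NDUFB4 at 0.29.

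Complex IV had the lowest median log2 ratio of the 5 complexes, at 0.03. Of its 8 genes, 5 were higher in test group IV, or 3 of the 8 after median ratio or TMM scaling. COX4I1, its largest nuclear subunit, was at FPKM 178 and 175 (log2 ratio -0.02, from -0.09 to 0.05). COX6B1, which faces the intermembrane space, had FPKM 95.9 and 96.2. COX5A was lower in test group IV, at FPKM 84.7 and 76.4, with an interval that just included 0 (log2 ratio -0.15, from -0.31 to 0.01). COX5B, on an unplaced scaffold, was at FPKM 39.2 and 43.3. NDUFA4 is named as a complex I gene but its product is found with complex IV in mammals, and it was counted here. It was at FPKM 165 and 191 (log2 ratio 0.21, from 0.14 to 0.28), and COX7C at FPKM 26.1 and 29.5 (log2 ratio 0.18, from 0.01 to 0.35). The other 6 intervals of this complex included 0.

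COX7A2 and COX7A2L are related genes. COX7A2L, whose product joins complex III to complex IV in mammals, was at FPKM 40.0 and 41.4. COX7A2, the form that in mammals prevails outside heart and skeletal muscle, was at FPKM 2.84 and 2.26. It was the only member past the fold limit downward. With 45 and 39 fragments, its counting interval reached from -0.99 to 0.32 and so included 0. Reads shared by such paralogs were not separated here. COX7A1, COX6A1, COX6A2, COX8A and the alternative subunit COX4I2 were not found by symbol and were not analysed here.

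Complex V was represented by 10 genes, of which 9 were higher in test group IV, or 7 after median ratio or TMM scaling. ATP5B, the catalytic beta subunit of the F1 head, was the exception. It lies on chromosome 33 from 1630552 to 1633524 and had more fragments than any other member, 8835 and 8849. Its FPKM was 211 and 194, a log2 ratio of -0.12 (95% interval from -0.17 to -0.08), which made it the only member whose whole interval was below 0. The other F1 subunits measured were higher. ATP5C1, the gamma subunit that rotates in the head, was at FPKM 52.3 and 63.2 (log2 ratio 0.27, from 0.19 to 0.35). ATP5D, the delta subunit of the central stalk, was at FPKM 125 and 143 (log2 ratio 0.19, from 0.07 to 0.31). The intervals of both lay entirely above that of ATP5B.

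The c-ring of complex V turns as protons pass, and in mammals ATP5G1 and ATP5G3 encode the same mature protein with different import sequences. In the control group library the 2 genes had equal counts of 309 fragments, at FPKM 18.3 for ATP5G1 and 16.3 for ATP5G3. In test group IV, ATP5G1 had 551 fragments and FPKM 29.9, whereas ATP5G3 had 341 fragments and FPKM 16.5. The log2 ratio was 0.71 for ATP5G1 (95% interval from 0.51 to 0.92) and 0.02 for ATP5G3 (from -0.21 to 0.24), and the intervals did not overlap. ATP5G1, on chromosome 27 from 3706954 to 3709485, overlaps IGF2BP1, an RNA-binding protein gene with 32 and 67 fragments and a log2 ratio of 0.94. The part of these overlapping reads in the difference of ATP5G1 was not tested. In all, 7 members overlap another listed gene, ATP5B among them with a small nucleolar RNA gene.

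The 5 peripheral stalk and membrane genes of complex V found by symbol were all higher in test group IV. Their log2 ratios lay from 0.08 (ATP5I) to 0.51 (ATP5H), and after median ratio or TMM scaling 4 of the 5 stayed higher. ATP5L and ATP5O were not found by symbol and were not analysed here. ATP5F1, the b subunit of the stalk, was at FPKM 202 and 222 (log2 ratio 0.14, from 0.06 to 0.22). ATP5H, the d subunit, was at FPKM 39.7 and 56.8, with 544 and 847 fragments (from 0.36 to 0.67). ATP5J2, the f subunit of the membrane part, was at FPKM 40.5 and 53.4 (log2 ratio 0.40, from 0.22 to 0.58). ATP5J, coupling factor F6 of the stalk, was at FPKM 54.2 and 62.8 (log2 ratio 0.21, from 0.10 to 0.32). ATP5I, the e subunit, was at FPKM 72.2 and 76.6, and ATP5S was at FPKM 3.30 and 3.61, both with intervals that included 0. ATP5J overlaps JAM2, a gene with 90 and 96 fragments. On the same chromosome, ATP5J lies 122 bases from GABPA, the gene of the DNA-binding subunit of nuclear respiratory factor GABP. GABPA was at FPKM 28.7 and 35.6, a log2 ratio of 0.31 (from 0.22 to 0.40).

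**Figure D3:**
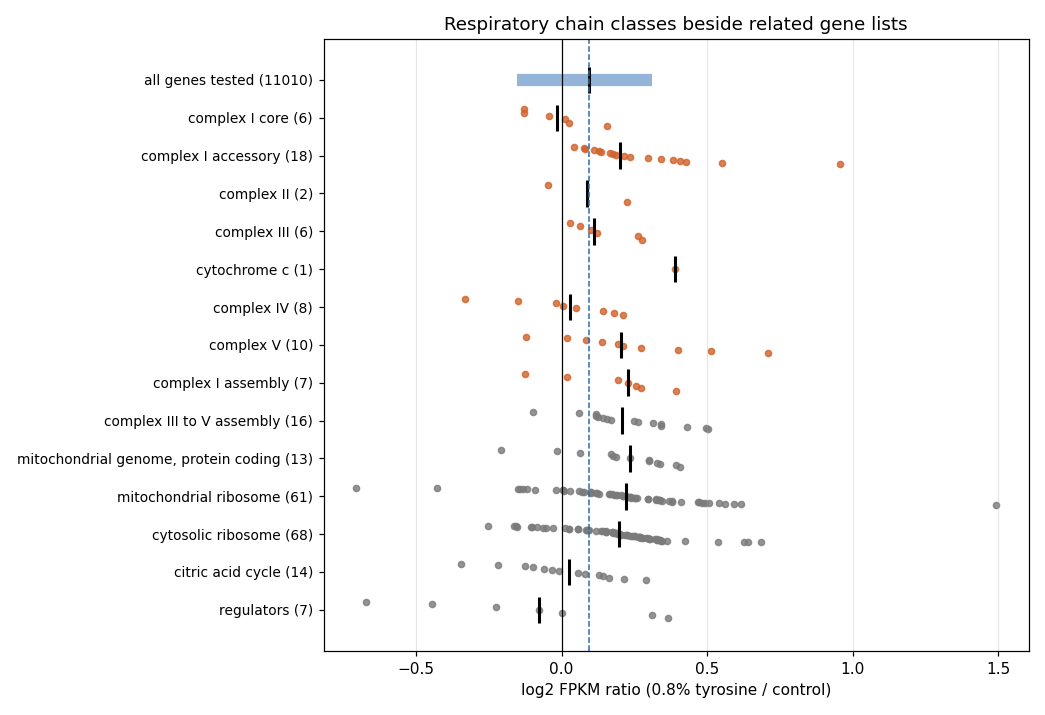
Log2 FPKM ratio of test group IV over the control group by class, with 1 point per gene, a black bar at the median of each class and the number of genes in brackets. The blue band holds the middle 50% of all 11010 compared genes and the dashed line their median of 0.09. The nuclear core subunits of complex I (median -0.02) and complex IV (0.03) lie to the left of that line, and the accessory subunits (0.20) and complex V (0.20) to the right.

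The proteins encoded by mitochondrial DNA are partners of these subunits, and 11 of the 13 genes were higher in test group IV, 10 of 13 relative to the median of all compared genes. Their median log2 ratio was 0.23, with MT-ND3 highest at 0.41 and ND5 lowest at -0.21. The 7 complex I genes of mitochondrial DNA were not counted with the nuclear core genes above. Of these 7, 6 were higher, all 6 above the median of all compared genes, and their median log2 ratio was 0.23. In complex IV, MT-CO1 (FPKM 16906 and 20807) and COX3 (FPKM 12214 and 15321) had log2 ratios of 0.30 and 0.33. MT-CO2 (FPKM 15087 and 15758) had 0.06, below the median of all compared genes, and the 8 nuclear genes had a median of 0.03.

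Other genes needed to build the chain were compared as lists. Of 29 symbols listed for assembly factors of complexes III to V, 16 were found. The list held ATPIF1 also under its other symbol, ATP5IF1, and this gene encodes an inhibitor of complex V. ATPIF1 is counted among the 16 (log2 ratio 0.06). In test group IV 15 of the 16 were higher, 14 of them above the median of all compared genes, and 5 were past the fold limit. Over all compared genes, 60.6% were higher as deposited and 24.0% passed the fold limit upward. The median log2 ratio of the 16 was 0.21. COX17, which delivers copper to complex IV, was at FPKM 77.9 and 93.3 (log2 ratio 0.26, from 0.10 to 0.43). COX10, which helps to make the heme of complex IV, was at FPKM 12.7 and 15.8. Its log2 ratio was 0.315 (from 0.14 to 0.49), just within the fold limit. Past the fold limit were COA3 (FPKM 3.07 and 4.36), COX15 (FPKM 5.28 and 6.69), COA7 (FPKM 7.78 and 9.86), ATPAF2 and LYRM7. The intervals of COA3 and COX15 included 0. ATPAF2, an assembly factor of the F1 head, was at FPKM 8.73 and 12.3 (log2 ratio 0.49, from 0.12 to 0.88), and LYRM7, a chaperone of the Rieske protein, was at FPKM 7.27 and 9.79 (log2 ratio 0.43, from 0.07 to 0.79). Of 5 further complex I assembly genes, 3 were higher and 2 were lower. FOXRED1 and NUBPL were past the fold limit upward, at FPKM 4.32 and 6.59 and at FPKM 2.11 and 2.84, and the interval of NUBPL included 0. ACAD9 was the abundant one of these, at FPKM 131 and 109.1 (log2 ratio -0.26, from -0.33 to -0.20).

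Ribosomal proteins leaned the same way as the respiratory subunits. Of 61 mitochondrial ribosomal protein genes, 53 were higher in test group IV and 20 were past the fold limit upward, with a median log2 ratio of 0.22. Of 68 genes named as cytosolic ribosomal proteins, 58 were higher and 13 were past the fold limit upward, with a median of 0.20. That limit was passed upward by 24.0% of all compared genes, a larger share than among the cytosolic ribosomal genes. Relative to the median of all compared genes, 46 of the 61 and 50 of the 68 were higher. The citric acid cycle did not show this lean. Of its 14 genes, 7 were higher and 7 were lower, and 5 of the 14 were above the median of all compared genes. CS, the citrate synthase gene, was at FPKM 39.8 and 31.3 (log2 ratio -0.35, from -0.44 to -0.26). MDH2, the malate dehydrogenase of mitochondria, was at FPKM 160 and 195 (log2 ratio 0.29, from 0.23 to 0.35).

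Gene length was examined because many respiratory subunits have short transcripts. The 19 subunit genes with an implied length under 1000 bases had a median log2 ratio of 0.17, and the 32 longer ones had 0.13. Over all compared genes, the medians were 0.09 below and 0.09 above that length. Among the accessory genes of complex I, the median was 0.18 for 11 genes under 1000 bases and 0.22 for 7 longer ones. The 4 members on the Z chromosome (NDUFS4, NDUFAF2, ATP5I and COX7C) had log2 ratios from 0.08 to 0.26, and the 508 compared genes of that chromosome had a median of 0.13.

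Markers of some other cell types differed between the pools. In bulk tissue, fewer cells of a type and less RNA per cell cannot be told apart. All 6 melanocyte markers found were higher in test group IV, with a summed FPKM of 0.674 and 11.6. All 4 adipocyte markers found were lower, with a summed FPKM of 69.5 and 44.5, and CIDEC among them had 0 fragments in test group IV. Of 7 slow fibre markers found, 6 were lower. TNNC1, at FPKM 9768 and 8333, made up nearly all of their summed FPKM of 9784 and 8347, so that sum follows 1 gene. TNNC1 was above the fast fibre gene TNNC2, at FPKM 5981 and 6987, while MYH7B had FPKM 0.993 and 0.247 and TNNI1 had 16 and 6 fragments. The remaining lists had a summed FPKM of 45.4 and 47.4 for 5 endothelial markers, 24.5 and 24.2 for 3 erythroid markers, and 186 and 240 for 6 leukocyte markers. Of the leukocyte markers 3 were higher and 3 lower, and CD74, at FPKM 154 and 207, made up most of the difference in their sum. The part of these cells in the ratios of the members was not tested.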

How the data were processed

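RNA of several birds was pooled per group, and 1 library was made from each pool with a directional kit. The authors trimmed with Seqtk, aligned to Ensembl Galgal5 in TopHat 2.0.9 and obtained gene counts in StringTie 1.3.0. The paper reports TMM normalization of these values and an FPKM value calculated for each gene. TMM scaling of the deposited counts gave a factor of 1.07 relative to the deposited FPKM values. The submitters' notes also name HISAT2. The deposited columns are a whole-number fragment count and an FPKM value per gene. Each listed gene has at least 1 fragment in the control group, which every member exceeds. Genes with fragments in test group IV alone are therefore missing from all compared genes. The shares of all compared genes that were higher or past a fold limit upward leave them out. Symbols are those deposited. A symbol was missing for 5006 genes, so unnamed respiratory genes were not analysed here.

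FPKM values were used as deposited, without a pseudocount, where at least 1 library reached an FPKM of 1. Exact Clopper-Pearson 95% intervals used the depth ratio of 1.09. They cover counting error only, and they may be too narrow even for that, since PCR copies were not separated. With 1 library per group no test was run. Median ratio scaling (1.06), TMM scaling of the counts (edgeR 4.0.16, R 4.3.3; 1.07) and scaling to the FPKM sum without mitochondrial genes (0.99) were alternatives, as were pseudocounts, filters and fold limits. Python 3.11.15 was used with scipy 1.17.1, pandas 2.3.3, matplotlib 3.10.9 and numpy 2.4.6, and the ratios and intervals were tested on simulated data.

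Members and gene lists were chosen with earlier results of these data known. Named genes were the members, with values given for the most abundant, the extremes, those past the fold limit (a log2 ratio of 0.32) and paralogs, and members of related lists past that limit with a few chosen after their values were seen. Values of 1 member are not reported here by name, and it stays in the counts and medians. Sequences are not shown.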

Additional observations from a re-analysis of the deposited data

How the results depend on the processing

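Most limits follow from 1 library per group, since a ratio can be set against counting error alone. The median log2 ratios moved together with the scaling. Under median ratio scaling they were 0.051 for the 51 subunits, 0.071 for complex I, -0.0019 for complex II, 0.022 for complex III, 0.30 for cytochrome c, -0.063 for complex IV and 0.11 for complex V, and TMM scaling gave 0.051, 0.070, -0.0024, 0.022, 0.30, -0.064 and 0.11. Complexes II and IV thus changed sign. The 11 members past the fold limit upward became 5 under either scaling, 2 with a 1.5-fold limit and 0 with a 2-fold limit. For the 5 and the 2, the share of all compared genes is not given here. The 1 member past it downward, COX7A2, became 0 under scaling to the FPKM sum without mitochondrial genes, with a pseudocount of 0.1 or 1, with an FPKM limit of 10, and with a fold limit of 1.5 or 2. The ratio of summed FPKM in place of the median gave 0.15 for complex II, 0.16 for complex III and 0.14 for complex V. With the assembly factors left in, the median was 0.16. Counting NDUFA4 with complex I moved no median by more than the counting error of the summed fragments of its class. Under median ratio or TMM scaling, 13 of the 59 members moved outside their own counting interval and 46 did not. No paired analysis was possible because each group has 1 library.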

Other observations

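Genes that regulate mitochondrial mass had ratios on both sides of 0. Of 11 such regulators, 7 were found by symbol. The counting interval as deposited was above 0 for 2 of the 7, TFAM and GABPA, against 28.6% of all compared genes. It was below 0 for 2, PPARGC1B and ESRRG, against 15.3%, and these are few genes to set against such shares. TFAM, which packages and transcribes mitochondrial DNA, was at FPKM 12.0 and 15.5 (control group first) (log2 ratio 0.37, 95% counting interval from 0.17 to 0.57). PPARGC1B, a coactivator of respiratory genes, was at FPKM 4.24 and 2.66 (log2 ratio -0.67, from -1.02 to -0.34), and ESRRG, an orphan receptor that drives oxidative genes in mammals, was at FPKM 4.34 and 3.19 (log2 ratio -0.45, from -0.86 to -0.04). PPARGC1A was at FPKM 3.18 and 3.01 and TFB1M at FPKM 9.21 and 7.87, with intervals that included 0. GABPB1, the partner of GABPA, had an FPKM of 6.16 in each library.

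Around the chain itself, PDHX, which anchors a subunit of the pyruvate dehydrogenase complex, was at FPKM 19.2 and 29.8 (log2 ratio 0.63, from 0.50 to 0.76), while PDHB and DLAT had log2 ratios of -0.10 and 0.03. SLC25A4, the exchanger of ADP and ATP in muscle, was the most abundant of 6 carrier and porin genes, at FPKM 874 and 1005 (log2 ratio 0.20, from 0.18 to 0.22). Among these 6 genes 3 were higher and 3 were lower, with log2 ratios from -0.13 to 0.20.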
